A study of Homo sapiens with 7 samples.

Results

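Estrogen signals through the estrogen receptor, a nuclear receptor that binds DNA once the hormone has bound to it and recruits cofactors that raise or lower transcription of nearby genes. Its best known binding sequence, the estrogen response element (ERE), is a palindrome of 2 inverted copies of a short motif separated by a spacer. In breast cancer cells of the luminal type, the receptor acts together with the factors FOXA1 and GATA3, and its targets include secreted peptides, growth factors and their binding proteins, enzymes and transcription factors.

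The genes described here are 10 well known targets of this receptor: TFF1, TFF3, GREB1, CA12, PDZK1, MYB, STC2, AREG, CXCL12 and IGFBP4. They were chosen by name, for being known to respond to estrogen, out of 26175 genes with a transcript level in RNA-seq. The cells were T-47D, a human breast cancer line, in the derivative T47D/A1-2, which overexpresses rat glucocorticoid receptor (GR) and carries an integrated MMTV luciferase reporter. All 7 libraries of the series shared 1 growth condition, in which medium with 10% serum was replaced by medium with 5% serum treated with charcoal and dextran for at least 24 hours, a treatment that depletes steroid hormones. No library with added estrogen was analysed here, so the values below are levels in stripped serum and not responses to hormone, and the hormone left in the medium was not measured. Start-seq, which sequences the 5’ ends of short capped nuclear RNA, gave 10391 gene transcription start sites (gene TSSs). On the opposite strand it gave 5519 start sites upstream of a gene TSS (uaTSSs) and 2956 downstream of it (daTSSs). Steady-state transcript levels were given as FPKM (fragments scaled by transcript length and by the number of mapped fragments), 1 value per gene over 3 merged RNA-seq replicates. With merged values there is no error between replicates, the read depth behind each value is unknown, and whether genes next to each other in the order of levels differ beyond replicate spread cannot be given.

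Markers of luminal epithelium were high and those of other cell types low. All 8 luminal epithelial markers had an FPKM of at least 1, with a median of 262 and keratins KRT8 (1142) and KRT18 (555) and the mucin MUC1 (343) highest. Of 12 markers of other cell types, 2 reached an FPKM of 1, the collagen COL1A1 at 8.82 and the actin ACTA2 at 3.20. The T cell marker CD3E and the basal keratins KRT5 and KRT14 were listed at 0.

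The start sites of 8 of these genes are shown first, because the results turn on the start site used for each. Each stretch below runs 5’ to 3’ on the strand of the gene, from 40 nts before the start base through 15 nts that begin with it, in hg19. The start base is in capitals, as is a TATA sequence (TATAA or TATAT) beginning 35 to 24 nts upstream. The first 5 are centred on the gene TSS called from Start-seq reads, and the last 3 on the annotated start, because no gene TSS was called there.
GREB1, called, chr2:11679785-11679839, plus strand: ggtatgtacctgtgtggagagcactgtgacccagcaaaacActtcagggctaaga
CA12, called, chr15:63674031-63674085, minus strand: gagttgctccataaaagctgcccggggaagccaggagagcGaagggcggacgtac
MYB, called, chr6:135501671-135501725, plus strand: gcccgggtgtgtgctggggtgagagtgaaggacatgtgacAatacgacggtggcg
STC2, called, chr5:172757089-172757143, minus strand: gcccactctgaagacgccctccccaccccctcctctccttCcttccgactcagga
IGFBP4, called, chr17:38599194-38599248, plus strand: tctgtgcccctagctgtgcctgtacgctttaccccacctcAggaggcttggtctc
PDZK1, annotated, chr1:145727658-145727712, plus strand: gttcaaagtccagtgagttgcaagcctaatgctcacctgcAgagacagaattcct
AREG, annotated, chr4:75310813-75310867, plus strand: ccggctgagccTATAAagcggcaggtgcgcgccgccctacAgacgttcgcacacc
CXCL12, annotated, chr10:44880531-44880585, minus strand: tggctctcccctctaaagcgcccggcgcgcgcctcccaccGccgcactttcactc

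Without added hormone, transcript levels of the 10 genes ran over a 952-fold range. The highest was IGFBP4 at an FPKM of 86.3 and the lowest PDZK1 at 0.0907. In order, CA12 stood at 38.0, GREB1 at 27.7, TFF3 at 26.5, STC2 at 8.08, MYB at 5.79, TFF1 at 1.90, AREG at 1.36 and CXCL12 at 0.814. An FPKM of at least 1 was found for 8 of the 10, against 46.9% of all 26175 genes. The median FPKM was 6.94, compared with 0.528 over all genes, of which 7888 were listed at 0. On the log2 scale, with a pseudocount of 0.1, the median of the 10 genes lay 3.47 above that of all genes, but the difference was -1.27 against genes with a called gene TSS. The median percentile of the 10 was 67.5 among all genes and 53.5 among genes above 0.

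**Figure D1:**
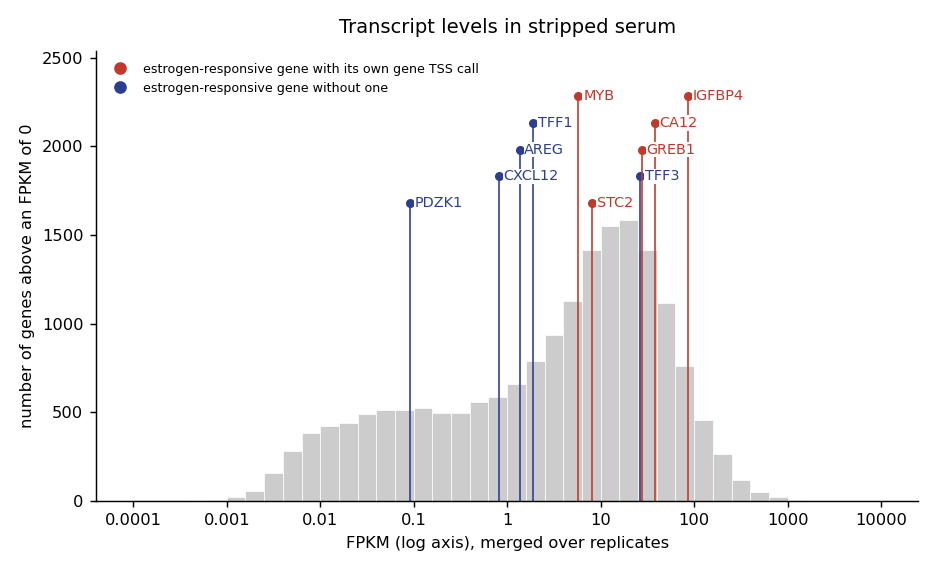
Histogram of FPKM (log axis) over all genes listed above 0 (vertical axis, number of genes), with a line for each of the 10 estrogen-responsive genes, in red where a gene TSS was called for it and in blue where none was. IGFBP4 (86.3), CA12, GREB1 and TFF3 sit at or beyond the peak of the histogram, and PDZK1 (0.0907) sits in its low tail.

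The estrogen receptor itself was among the better expressed genes. ESR1, which encodes estrogen receptor alpha, had an FPKM of 44.1 and ranked 2513 of 26175. ESR2, which encodes estrogen receptor beta, was at 0.0903, and the membrane estrogen receptor GPER1 at 0.0603. Of 18 receptors and cofactors, 16 had an FPKM of at least 1, with a median of 20.3. The highest were GATA3 at 360 and FOXA1 at 113, and the corepressor NRIP1, itself an estrogen target, was the lowest of the 16 at 5.76.

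Among 38 other genes known to be induced by estrogen, 31 had an FPKM of at least 1, with a median of 18.4. The keratin KRT19 was highest at 936, followed by the unfolded protein response factor XBP1 at 461 and the scaffold gene SLC9A3R1 at 252. PGR, the progesterone receptor gene, stood at 68.5, above 9 of the 10 genes described here. The lowest was the fatty acid elongase ELOVL2 at 0.00314. As among the 10 genes, some of these were near the top of all genes and others near 0.

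**Figure D2:**
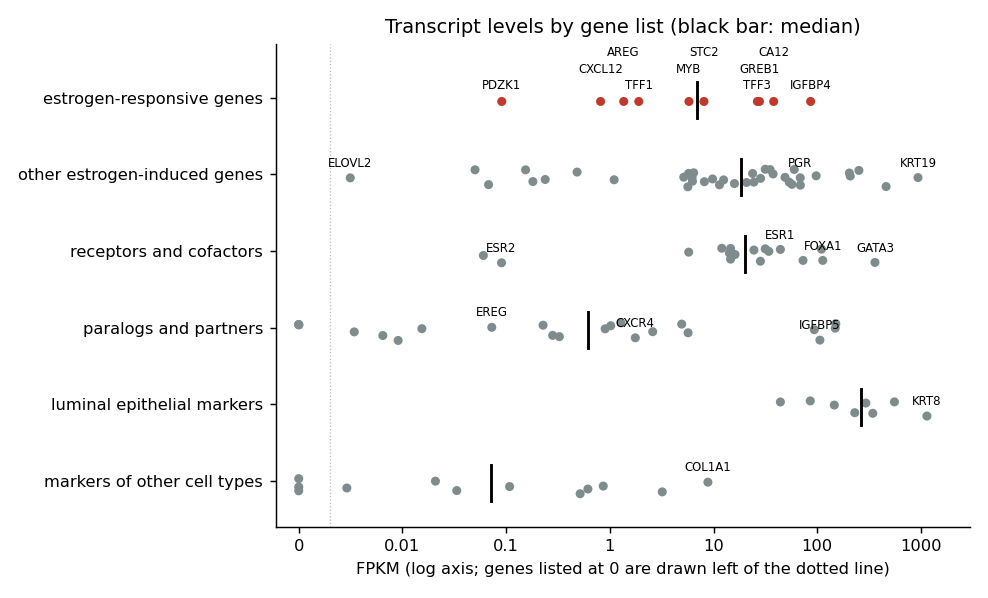
FPKM (log axis) of each gene in 6 lists (rows), with 1 point per gene and a black bar at the median of the list. The 10 estrogen-responsive genes (red, median 6.94) span most of the axis, all 8 luminal epithelial markers lie at 44.1 or above, and 10 of 12 markers of other cell types lie under 1.

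The trefoil factors TFF1 and TFF3 are small secreted peptides that protect mucosal surfaces, and their genes lie beside that of TFF2 on chromosome 21. TFF3 (chr21:43731777-43735706) had a 13.9-fold higher FPKM than TFF1 (chr21:43782391-43786644), at 26.5 against 1.90. TFF2, which lies between them, was listed at 0. TFF3 therefore ranked 4030 and TFF1 11315 of all genes, and the 3 neighbouring family members had values from 0 to above most expressed genes.

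GREB1 encodes a cofactor of the estrogen receptor, and MYB a transcription factor that promotes proliferation. GREB1 (chr2:11674242-11782912) stood at 27.7, higher than 85.2% of all genes. MYB (chr6:135502453-135540311) stood at 5.79, higher than 65.7%. Its paralogs MYBL2 and MYBL1 stood at 149 and 5.65.

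CA12 encodes a carbonic anhydrase of the cell membrane, and PDZK1 a scaffold protein that holds membrane transporters in place. CA12 (chr15:63615730-63674309) had the second highest level of the 10 at 38.0, while the other carbonic anhydrases CA2 and CA9 stood at 0.00909 and 0.281. PDZK1, at 0.0907, was higher than 42.6% of all genes and than 17.8% of those above 0. The deposited interval of PDZK1 (chr1:144146811-146467744) is 2320934 nts long and is listed for 35 genes, among them the pseudogene PDZK1P1 at an FPKM of 0. All 2001 stretches of 30 nts that begin within 1000 nts of the PDZK1 start occurred once in the genome. The rest of the transcript was not searched for copies, and how the shared interval bears on its value was not tested. The scaffold genes SLC9A3R1 and SLC9A3R2, whose products share the PDZ domain with PDZK1, stood at 252 and 151.

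The remaining 4 genes encode secreted regulators. IGFBP4 (chr17:38599676-38613982), which binds insulin-like growth factors, was the highest of the 10 at 86.3. Of its paralogs, IGFBP5 (106) and IGFBP2 (93.6) stood at like levels, IGFBP6 was at 0.901, IGFBP3 at 0.0154 and IGFBP1 was listed at 0. The growth factor IGF2 stood at 1.02 and IGF1 was listed at 0, and PAPPA, the protease that cleaves IGFBP4, stood at 0.00343. The secreted glycoprotein gene STC2 (chr5:172741726-172756506) stood at 8.08 and its paralog STC1 at 4.93.

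AREG encodes amphiregulin, a ligand of the epidermal growth factor receptor, and stood at 1.36. The receptor gene EGFR stood at 1.28. Among the other ligands of this receptor, TGFA (5.68) and EGF (2.59) were higher than AREG, and HBEGF (0.326), BTC (0.227) and EREG (0.0727) were lower. CXCL12 (chr10:44865601-44880545) encodes a chemokine and stood at 0.814, while its receptor genes CXCR4 and ACKR3 stood at 1.76 and 0.00647. Over all 22 paralogs and partners of the 10 genes, 10 had an FPKM of at least 1 and the median was 0.613.

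The level of AREG is uncertain because hg19 holds 2 nearly identical copies of it. The deposited interval (chr4:75480591-75490485) is that of the copy the annotation names AREGB (chr4:75480629-75490486), and the gene annotated as AREG lies at chr4:75310853-75320722. Around the annotated starts, 599 of 600 nts were identical between the copies (99.8%), and the transcripts matched at 1233 of 1234 aligned nts (99.9%). The alignment of the transcripts also held 5 letters in gaps. Of the 2001 stretches of 30 nts that begin within 1000 nts of the AREG start, 73 occurred once in the genome (3.65%). The length of 30 nts was an assumption, because the Start-seq read length is not given in the sources used here. For the other 9 genes this share ranged from 78.8% at IGFBP4 to 100% at PDZK1, STC2 and CXCL12. The authors kept uniquely mapped fragments for TSS calling. The part of the repeated sequence in the missing call and in the FPKM of AREG was not tested.

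Gene TSSs were called for 5 of the 10 genes: GREB1, CA12, MYB, STC2 and IGFBP4. Each had exactly 1 call on its strand inside its deposited interval widened by 1000 nts. The interval of PDZK1, widened in the same way, held 11 calls on its strand, none of them nearest to a PDZK1 start, so by interval alone 6 of the 10 genes had a call. Over the 21933 genes with a known strand, the share was 47.5% by interval and 41.7% when the call had to lie nearest to the gene’s own annotated start. The counts of 6 and 5 of 10 were thus near the shares of all genes.

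The genes with a call were not simply the highest. Of the 8 genes with an FPKM of at least 1, 5 had their own call, compared with 77.2% of 11136 genes at this level, and neither of the others did, compared with 5.09% of 10797 genes below 1. TFF3 had the highest level among the genes described here that had no call. At an FPKM of 26.5 it had no call, although 2089 of 2439 genes within 1.5-fold of its FPKM had one (85.6%). GREB1, at almost the same FPKM, had one. For TFF1 the share at its level was 48.9%, for AREG 40.9%, for CXCL12 29.6% and for PDZK1 8.74%. A high level without an own call was not particular to TFF3, whose widened interval held 0 calls. Of the 38 other genes induced by estrogen, 31 had an FPKM of at least 1, and 22 of these had their own call. PGR (68.5) and CTSD (204) had no own call. A strand was known for 35 of the 38, and genes without one counted as having no own call. Of the 8 luminal epithelial markers 7 had their own call, and KRT8 (1142) had none. Whether the intervals of PGR, CTSD and KRT8 held a call assigned to another gene is not given here. The gene TSS nearest to the annotated start of TFF3 on its strand lay 80592 nts away and that nearest to TFF1 lay 29467 nts away, and both were the same call, at TMPRSS3. Of 30-nt stretches within 1000 nts of the TFF3 start, 84.1% occurred once in the genome, and their part in the missing call was not tested.

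**Figure D3:**
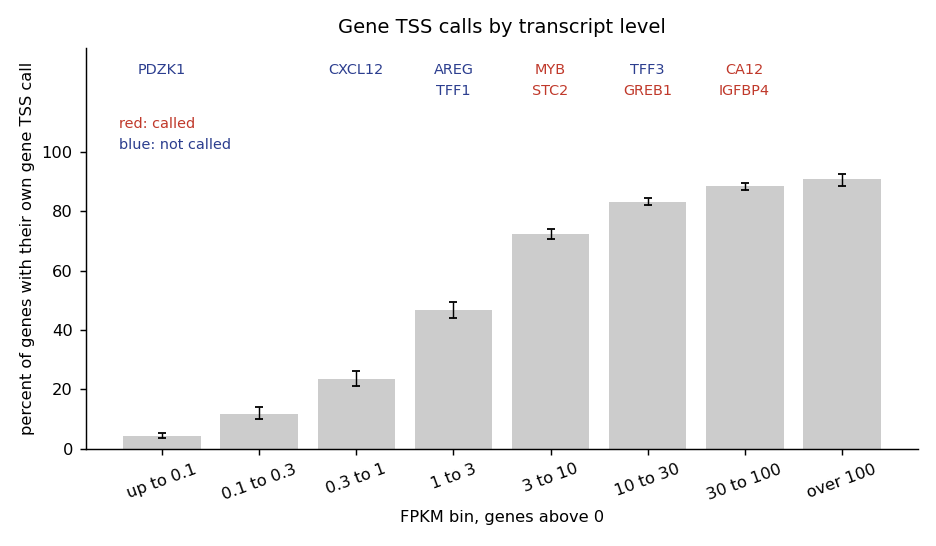
Percent of genes with their own gene TSS call (bars, with exact 95% Clopper-Pearson intervals for counting error) by bin of FPKM, for genes listed above 0, with the 10 estrogen-responsive genes named above their bins in red (called) or blue (not called). The share rises from 4.50% up to an FPKM of 0.1 to 90.8% over 100, and TFF3, in the bin from 10 to 30, has the highest FPKM of the 5 estrogen-responsive genes without a call.

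Except at CA12, the called gene TSSs lay 144 to 1653 nts from the nearest annotated start. The CA12 call (chr15:63674045, minus strand) fell exactly on an annotated start. The GREB1 call (chr2:11679825, plus strand) lay 144 nts upstream of the nearest annotated start, within the intron 1 of the canonical transcript and 5654 nts downstream of the start of that transcript. The IGFBP4 call (chr17:38599234, plus strand) lay 468 nts upstream of the nearest annotated start. The MYB call (chr6:135501711, plus strand) lay 735 nts upstream, and the STC2 call (chr5:172757103, minus strand) 1653 nts upstream of the nearest annotated start.

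Over all gene TSSs, the median distance to the nearest annotated start was 10 nts. A call over 100 nts upstream was found for 4 of the 5 genes, against 9.25% of all gene TSSs, a limit that was chosen after these values were seen. The STC2 distance was larger than 99.9% of all distances. It was measured to a GENCODE start, whereas the authors searched around RefSeq starts, and the call lay 597 nts from the 5’ end of the deposited interval. The MYB distance was larger than 98.0%, that of IGFBP4 larger than 94.7% and that of GREB1 larger than 84.5%. The calls of MYB, STC2 and IGFBP4 lay outside every annotated transcript of these genes. Each call is a single position from 1 library with a deposited score of 0. The authors called a TSS only where a position held at least 5 reads, so the exact number of reads above this is unknown.

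Antisense starts were called at GREB1, CA12 and IGFBP4. A uaTSS was called for 1 of the 5 gene TSSs (20%, exact 95% Clopper-Pearson interval 0.5% to 71.6%), against 53.1% of all gene TSSs. A daTSS was called for 2 of the 5 (40%, 5.3% to 85.3%), against 28.4%. Both intervals span the share of all gene TSSs, and they cover counting error only. The uaTSS was that of GREB1, 148 nts upstream of the gene TSS at chr2:11679677, where the median over all uaTSSs was 200 nts. CA12 and IGFBP4 had a daTSS and no uaTSS, a combination found at 11% of all gene TSSs, and MYB and STC2 had neither.

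The CA12 daTSS (chr15:63672894, plus strand) lay 1151 nts downstream of the gene TSS, in the intron 1 of the canonical transcript, farther than 90.2% of all daTSSs. The IGFBP4 daTSS (chr17:38600086, minus strand) lay 852 nts downstream, in coding sequence of the exon 1, farther than 78.0%. This distance is from a call 468 nts upstream of the annotated start, so the daTSS lies nearer to the annotated start. The median over all daTSSs was 507 nts. With FPKM values of 38.0 and 86.3, CA12 and IGFBP4 were higher than 77.3% and 91.6% of the 1041 gene TSSs with an FPKM, a daTSS and no uaTSS, whose median was 13.3. GREB1 was higher than 62.0% of those with a uaTSS alone, and MYB and STC2 were higher than 29.2% and 36.0% of those with neither. The sequences at the 3 antisense starts are shown for comparison with the sense starts above, each read on its own strand with the start base in capitals.
GREB1 uaTSS, chr2:11679663-11679717, minus strand: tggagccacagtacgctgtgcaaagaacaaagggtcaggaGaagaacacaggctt
CA12 daTSS, chr15:63672854-63672908, plus strand: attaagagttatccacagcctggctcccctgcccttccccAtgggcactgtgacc
IGFBP4 daTSS, chr17:38600072-38600126, minus strand: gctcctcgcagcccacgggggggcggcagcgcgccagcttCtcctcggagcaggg

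**Figure D4:**
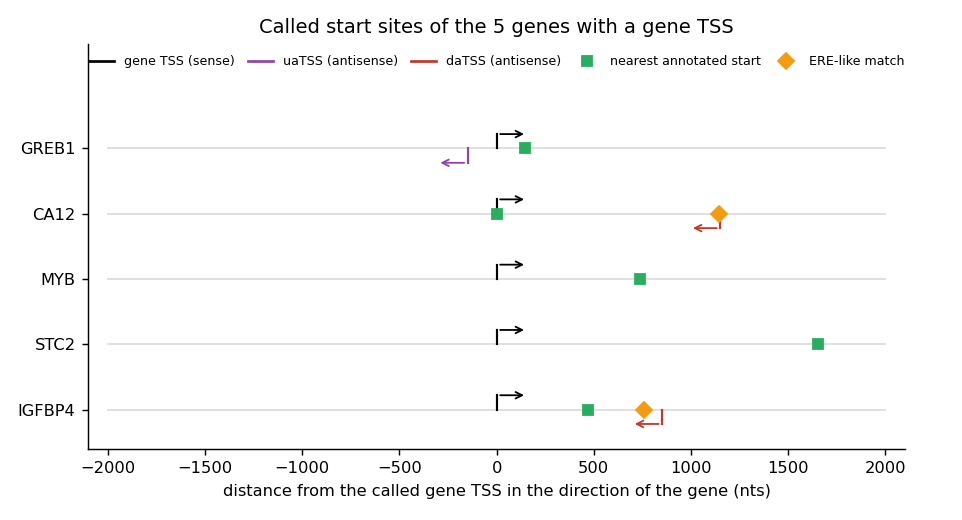
Positions of called start sites, the nearest annotated start (green square) and ERE-like matches (orange diamond) at the 5 genes with a gene TSS, drawn to scale as distance in nts from the gene TSS in the direction of the gene. Only GREB1 has a uaTSS (148 nts upstream). CA12 and IGFBP4 have a daTSS (1151 and 852 nts downstream) with an ERE-like match near it. The nearest annotated start lies downstream of the call at every gene but CA12.

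EREs were searched as the letters GGTCA, any 3 bases, then TGACC, on both strands, in 2000 nts on each side of the called gene TSS or, without a call, of the annotated start. With at most 1 mismatch among the 10 fixed letters, 3 of the 10 genes held such a match, against 10.1% of all gene TSSs. None held a match without a mismatch, which 0.308% of all gene TSSs did. These shares cover called positions only, whereas TFF1, TFF3, PDZK1, AREG and CXCL12 were searched at annotated starts, so the sets are unlike. The 3 matches carry the comparison and are printed with the bases equal to the fixed letters in capitals.
TFF1, chr21:43787037-43787049, minus strand: GGTCAcggTGgCC
CA12, chr15:63672896-63672908, minus strand: GGTCAcagTGcCC
IGFBP4, chr17:38599984-38599996, plus strand: GGTCAtgcTGcCC

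The match at TFF1 was centred 399 nts upstream of the annotated start and differed from the element by A11G. Those at CA12 and IGFBP4 were centred 1143 and 756 nts downstream of the gene TSS and both differed by A11C. In these, the base of the element comes first, then its position counted from 1 at the 5’ end of the 13 bases, then the base of the site. The element is a palindrome, so each site also matches on the other strand, and position and base are those read on the strand of the gene.

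The matches at CA12 and IGFBP4 lay close to their daTSSs. At CA12 the nearest base of the match was 2 nts from the daTSS, and the match makes up the end of the CA12 daTSS stretch printed above, read from the other strand. At IGFBP4 the nearest base was 90 nts from the daTSS, within the coding exon 1. An ERE-like match centred within 100 nts was found at both of these daTSSs, against 0.778% of all 2956 daTSSs and 0.5% of all gene TSSs, a window chosen after the matches were seen. A match in sequence is not evidence of receptor binding, which was not measured here.

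When the annotated start of the canonical transcript was used for every gene, a match without a mismatch appeared at GREB1. It was centred 1505 nts upstream of the canonical start, in an intron of a longer annotated transcript, and outside the window around the called gene TSS. It is shown because, within 2000 nts of either kind of start, no other of the 10 genes held all 10 fixed letters.
GREB1, chr2:11672660-11672672, plus strand: GGTCAttcTGACC

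Base composition around the start sites used here set several of these genes apart from most gene TSSs. In 1000 nts centred on the start site, the median GC content over all gene TSSs was 63.0%, and 8 of the 10 genes were below it, from 52.6% at GREB1 to 60.8% at STC2. CXCL12 (71.8%) and IGFBP4 (63.8%) were above. The observed to expected CpG ratio, which is high in CpG islands, was at least 0.6 for 5 of the 10 genes, against 87.5% of all gene TSSs. The 5 below were PDZK1 (0.20), TFF3 (0.26), GREB1 (0.29), TFF1 (0.37) and IGFBP4 (0.54). The ratio of IGFBP4, the highest of these, was larger than that of 8.6% of all gene TSSs. Of these 5, GREB1 and IGFBP4 had a called gene TSS. The remaining genes CA12 (0.71), STC2 (0.74), MYB (0.78), AREG (0.80) and CXCL12 (0.87) lay within the range of most gene TSSs. The windows of GREB1 and IGFBP4 were centred on calls 5654 nts downstream and 468 nts upstream of the start of the canonical transcript. Their ratios at that start are not given here. Those of TFF1, TFF3, PDZK1, AREG and CXCL12 were centred on annotated starts, whereas the shares of all gene TSSs cover called positions only.

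At the start itself, a pyrimidine followed by a purine start base was found at 9 of the 10 genes, all but STC2, against 66.1% of all gene TSSs. The letters CA, any base, then A or T, with the start at the A of CA, were found at GREB1, PDZK1, MYB and AREG, 4 of 10 genes, against 18.8%. A TATA sequence in the window 35 to 24 nts upstream was found at TFF1 and AREG, 2 of 10 genes, against 3% of all gene TSSs. The GC box GGGCGG, on either strand in the 50 nts upstream, was found at TFF1, AREG and CXCL12, 3 of 10 genes, against 27.4%. The cyclic AMP response element TGACGTCA, between 250 nts upstream and 50 nts downstream, was found at AREG alone, against 3.1%. The TATA, GC box and TGACGTCA matches all lie at genes without a called gene TSS, so their distances are from annotated starts. For every motif here, TFF1, TFF3, PDZK1, AREG and CXCL12 were scored at annotated starts. The shares of all gene TSSs cover called positions only, so the 2 sets of starts are unlike. The AREG promoter is shown because it holds 3 of these motifs within 70 nts of the annotated start. TGACGTCA, which begins 65 nts upstream, and TATAAA, which begins 29 nts upstream, are in capitals.
AREG, chr4:75310783-75310852, plus strand: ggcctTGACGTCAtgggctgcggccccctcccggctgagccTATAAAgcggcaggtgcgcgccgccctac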

How the data were processed

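T47D/A1-2 cells were assayed by Start-seq (2 libraries), RNA-seq (3), MNase-seq (1) and FAIRE-seq (1). MNase-seq, FAIRE-seq and Start-seq replicate 2 were not used here. The deposited FPKM values were computed by the authors with Cufflinks 2.2.1 after TopHat2 2.0.4 alignment, removal of duplicates with Picard and merging of replicates, so depth and replicate error are unknown. The table held 0 columns of single samples. The authors aligned Start-seq reads to hg19 with Bowtie 0.12.8 and called TSSs from uniquely mapped fragments within search windows around RefSeq starts. The deposited calls are positions with a score of 0 and no read counts.

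Symbols were matched to GENCODE models lifted to GRCh37 (22337 of 26175), which has the chromosome sequences of hg19. A strand was found for 21933 genes. Calls were joined by their shared identifier, and a call was a gene’s own where its nearest annotated start belonged to that gene. Sequences were read from GRCh37. Log2 values used a pseudocount of 0.1. Intervals are exact at 95%. With 1 condition no test was run. The motif search was tested on simulated data. Python 3.11.15, numpy 2.4.6, pandas 2.3.3, scipy 1.17.1, pysam 0.24.0, Biopython 1.88, numba 0.67.0 and matplotlib 3.10.9 were used.

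The genes and lists were chosen with earlier results of these data known. Named were all 10 genes, the 3 highest genes of each other list, genes listed at 0, ESR1, ESR2, FOXA1, GATA3 and PGR, and paralogs, ligands and receptors of the 10 genes. Some genes and sequences that this rule covers are not reported here. GPER1, NRIP1, ELOVL2 and ACTA2 were named after their values were seen. Alternatives were other FPKM minimums, pseudocounts, interval widths, strands, anchors, windows, mismatches and gene subsets. Counting only calls nearest to the gene’s own start was chosen after seeing the data.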

Additional observations from a re-analysis of the deposited data

How the results depend on the processing

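Of 21 alternatives, 12 left a count within 1.5 times its value or a median as it was. The median FPKM of 6.94 became 17.3 without AREG and PDZK1. The median percentile of 67.5 among all genes became 53.5 among genes above 0 and 50.9 among genes of at least 1, over the 8 genes at that level. On the log2 scale the median of the 10 genes lay 3.47 above that of all genes, 2.36 with a pseudocount of 1, and was -1.27, the opposite sign, against genes with a called gene TSS, of which 550 had an FPKM below 1. The 6 genes with a call by interval became 3 when the interval was not widened, and 5 when the call had to lie nearest to the gene’s own start. The count was 4 when the call had to lie within 1000 nts of an annotated transcript start. The 2 daTSSs became 1 when only distances up to 1000 nts counted. The 3 genes with an ERE-like match became 0 with no mismatch and 9 with at most 2 mismatches, which 77.6% of all gene TSSs also held. With 1000 nts on each side 2 genes held a match, against 5.20% of gene TSSs, and 4 did with annotated starts as anchors. No paired analysis was possible because FPKM values are merged over replicates and TSS calls come from 1 library. For the same reason no replicate could be left out.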

Other observations

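The genes next to 9 of the 10 on the chromosome had varied levels, PDZK1 being left out because of its shared interval, and microRNA, small nucleolar RNA, long intergenic RNA and uncharacterised loci being passed over. The FPKM of IGFBP4 (86.3) was close to that of TOP2A (91.5), the topoisomerase gene 25473 nts away, while TNS4 on the other side stood at 8.35. TFF1 (1.90) lay between TFF2, listed at 0, and TMPRSS3 at 0.151, and both neighbours were lower. GREB1 (27.7), CA12 (38.0), AREG (1.36) and CXCL12 (0.814) were likewise higher than both of their neighbours. AREG lay between other ligands of the same receptor, EREG at 0.0727 and BTC at 0.227, and GREB1 between the transcription factor gene E2F6 at 5.71 and the neurotensin receptor gene NTSR2 at 0.0349. TFF3 (26.5) was higher than the cholesterol transporter gene ABCG1 (12.3) and TFF2. STC2 (8.08) was higher than the cardiac factor NKX2-5, listed at 0, and lower than BOD1 (14.1). MYB (5.79) lay between HBS1L (13.2) and AHI1 (3.99).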
